A study of Homo sapiens with 9 samples.

Results

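Nuclear receptors are transcription factors that bind DNA through zinc fingers, and many of them switch between repressing and activating genes when a small ligand enters their ligand-binding pocket. Steroids, thyroid hormone, retinoic acid, vitamin D, oxysterols and fatty acids act in this way, while the orphan receptors have no ligand that is agreed upon. The estrogen-related receptors (ERRs) belong to the same family and bind a related DNA sequence. The members described here were the 43 nuclear receptor genes other than the ERR genes, chosen by gene symbol out of 61209 symbols in the count table. Of these, 30 had enough reads to be tested, among 16976 tested genes, and 13 did not.

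T1 (GIST-T1) is an imatinib-sensitive human gastrointestinal stromal tumor (GIST) line. By its labels it carries the KIT exon 11 deletion del560-79 in every group, so all results come from 1 line. Bulk RNA sequencing gave 9 libraries in 3 groups of 3. The siNC cells received a non-target control siRNA, the siERRα cells an siRNA against ESRRA (the gene of ERRα), and the imatinib cells the non-target siRNA together with 50 nM imatinib, an inhibitor of KIT. All were harvested at 48 h. By their labels the imatinib libraries are numbered S16 to S18 and those of the other groups S1 to S6. An effect of imatinib and any difference that goes with this numbering cannot be told apart. Whether the 3 libraries within a group are separate cultures is not stated, and p-values therefore reflect the spread among these libraries, which may be technical.

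Library totals ran from 37527236 to 49363002 counts. Levels are given as CPM, counts scaled to a common library size after TMM normalization, and mean levels carry the SD over 3 libraries. ESRRA had 40.7, 44.7 and 40.9 CPM in siNC, 1.40, 0.757 and 1.34 in siERRα, and 30.4, 32.0 and 35.6 with imatinib. Its log2 fold change was −5.18 after knockdown and −0.37 with imatinib (adjusted p = 0.00383 for the latter in edgeR). The other ERR genes, ESRRB and ESRRG, had at most 2 counts in any library. All 7 markers of GIST and interstitial cells of Cajal were present, with a summed level of 3556 to 3661 CPM in siNC, 3813 to 3945 in siERRα and 3705 to 3919 with imatinib. Of the 12 markers of leukocytes, epithelium, endothelium and smooth muscle, none exceeded 2.29 CPM in any library. The summed level of the 3 epithelial markers was 0.417 to 0.585 CPM in siNC, 0.180 to 0.440 in siERRα and 0.759 to 1.13 with imatinib, and that of the 3 endothelial markers 1.34 to 1.61, 1.199 to 1.66 and 1.86 to 3.01. Smooth muscle markers summed to 1.92 to 2.596 CPM in siNC, 1.12 to 1.43 in siERRα and 1.89 to 2.06 with imatinib, and leukocyte markers to 0.268 to 0.357, 0.0629 to 0.168 and 0.109 to 0.269. With imatinib the epithelial and endothelial sums lay above siNC without overlap, and in siERRα the smooth muscle and leukocyte sums lay below it. The other treated ranges of these cell types overlapped with siNC. The sums of the GIST and Cajal cell markers lay above siNC without overlap in both treated groups. Single markers moved both ways with imatinib (adjusted p under 0.05, edgeR). KIT, ANO1, ETV1, PRKCQ and GPR20 were higher, and FOXF1 and CD34 were lower. The part of these marker differences in the results was not tested. Mitochondrially encoded genes took 0.846% to 0.989% of counts in siNC, 0.943% to 1.03% in siERRα and 1.48% to 1.54% with imatinib. That share moved with imatinib, and its part in the imatinib results below was not tested. In bulk libraries, fewer cells that express a gene and less RNA per cell cannot be told apart.

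The sequences below are the windows from 250 bases before to 50 bases after a transcription start in RefSeq (GRCh38.p14) for the tested receptor genes with the largest rise, RARB with imatinib and NR6A1 after knockdown. RARB encodes retinoic acid receptor β and lies on the plus strand at chr3:24687887-25597932. Of its 4 RefSeq start windows, the one at chr3:25428013-25428312 is shown because it holds a direct repeat of the motif bound by retinoic acid receptors, printed in capitals. The repeat begins 52 bases before the start. NR6A1 encodes the germ cell nuclear factor and lies on the minus strand, and its window is chr9:124771262-124771561. The capitals there mark a cyclic AMP response element, which begins 24 bases before the start.
RARB: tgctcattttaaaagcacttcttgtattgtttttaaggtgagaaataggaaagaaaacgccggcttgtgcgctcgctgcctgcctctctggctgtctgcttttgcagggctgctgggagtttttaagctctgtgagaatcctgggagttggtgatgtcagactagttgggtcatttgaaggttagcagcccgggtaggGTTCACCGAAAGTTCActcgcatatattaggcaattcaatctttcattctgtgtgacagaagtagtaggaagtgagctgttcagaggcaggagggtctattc
NR6A1: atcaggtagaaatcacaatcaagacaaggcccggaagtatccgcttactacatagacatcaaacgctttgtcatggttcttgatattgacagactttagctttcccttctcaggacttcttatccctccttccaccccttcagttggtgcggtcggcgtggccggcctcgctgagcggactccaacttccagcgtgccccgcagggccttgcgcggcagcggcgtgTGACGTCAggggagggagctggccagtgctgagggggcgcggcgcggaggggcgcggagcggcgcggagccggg

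The RARB repeat was found by searching both strands for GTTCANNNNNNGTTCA. This sequence occurs in 0.0570% of 35116 RefSeq start windows and in 0.0426% of the 16427 windows of tested genes. RARB was the 1 tested member of 26 with a window that held it. The fixed letters searched for are those of the printed RARB repeat, so the match in RARB was built into the search. The part of this repeat in the RARB rise was not tested. Here and below the shares are per window, whereas members are counted per gene with any matching window. A gene can have several windows, so these counts and shares are on unlike scales. The response element TGACGTCA occurs in 1.85% of all windows and 2.80% of those of tested genes, and NR6A1 was again the 1 member. The bare motif AGGTCA is common, at 13.8% of all windows and 10.2% of those of tested genes, and lay in those of 5 tested members (NR1H3, NR5A2, PPARG, RARA and RARB). The longer element of the ERRs, TCAAGGTCA, which contains that motif, was in 0.353% of all windows, in 0.164% of those of tested genes and in none of the 26 members' windows. The E-box CACGTG of clock factors lay in the windows of NR1D2, NR2C1, NR2F2 and RARA (7.26% of all windows and 9.10% of those of tested genes), and the D-box TTATGTAA in those of NR1D2 and NR3C1 (0.886% and 0.530%). These matches describe letters in a window. Counts per gene do not show which RARB start was used in these cells.

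In siNC cells the receptors spanned a wide range of levels per kilobase of exon, the scale on which genes can be compared. NR2F6, an orphan receptor of the COUP-TF group that mostly represses transcription, was highest, with 46.5 ± 3.28 CPM per kb (SD, n = 3), and by itself gave 16.7% to 18.3% of all member CPM in the siNC libraries. RXRB, a shared dimer partner of many receptors, followed with 15.6 ± 1.04 CPM per kb, and no library of NR2F6 overlapped with it. ESRRA came next with 13.6 ± 0.723 CPM per kb, and its libraries overlapped with those of PPARD (12.9 ± 0.931), a fatty acid sensor. ESRRA was thus the third of these 31 genes in mean level per kb. In CPM without the length, its mean of 42.1 ± 2.24 was below NR3C1 (75.2 ± 2.79) and RXRA (62.8 ± 3.05), among others. ESRRA shares 9.16% of its exon length with TRMT112 on the other strand, which had enough reads to be tested.

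NR1D2, a clock repressor, had 10.0 ± 0.529 CPM per kb and the glucocorticoid receptor NR3C1 8.21 ± 0.305. The oxysterol receptor NR1H2 (7.09 ± 0.724) and the thyroid hormone receptor THRA (6.63 ± 0.543) overlapped with each other. So did RXRA (5.198 ± 0.253) and RARA (4.86 ± 0.198), and NR1D1 (2.30 ± 0.158) and NR4A1 (2.26 ± 0.0916). At the low end stood RARB with 0.156 ± 0.0215 CPM per kb, PPARG with 0.145 ± 0.00699, HNF4G with 0.128 ± 0.0329, NR4A2 with 0.102 ± 0.0191 and NR6A1 with 0.0788 ± 0.0130, each overlapping with its neighbor in the order.

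**Figure D1:**
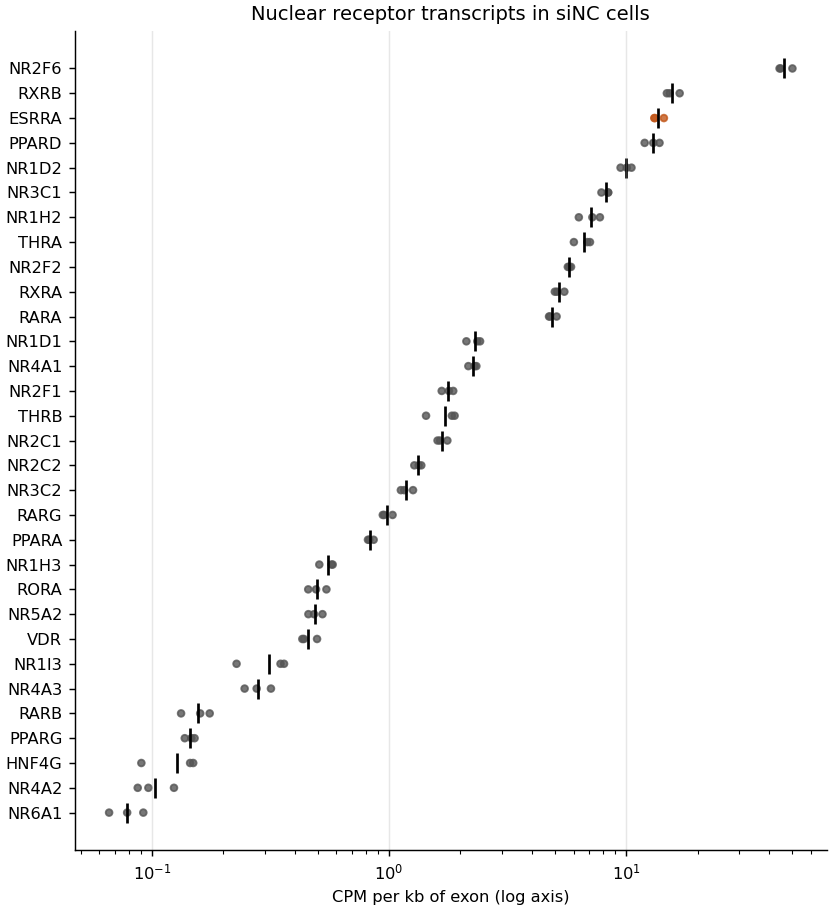
Levels of the 30 tested nuclear receptor genes and of ESRRA (orange) in the 3 siNC libraries, as CPM per kb of exon on a log axis, with a point per library and a bar at the mean. NR2F6 stands alone at the top (46.5 CPM per kb), ESRRA has the third place, and RARB, PPARG, HNF4G, NR4A2 and NR6A1 are at the bottom.

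Of the 13 untested members, 5 were at 0 counts in all 9 libraries, namely the bile acid receptor NR1H4, the xenobiotic receptor NR1I2, the estrogen receptor ESR1 (ERα), the progesterone receptor PGR and the neural receptor NR2E1. A count of 0 allows up to 3 counts, which is 0.0608 to 0.0799 CPM depending on the library, and this floor covers counting error only. The other 8 were RXRG, RORB, ESR2, HNF4A, NR2E3, NR5A1, NR0B1 and NR0B2, with at most 9 counts in a library. That highest count was of ESR2 (ERβ), which had 4, 2 and 9 counts in siNC, 1, 3 and 1 in siERRα, and 4, 2 and 1 with imatinib. RXRG had 2, 2 and 1 counts in siNC and 0 in each imatinib library, and NR0B1 1, 2 and 4 counts in siNC and 0 in each imatinib library. Changes of the 13 genes were not tested.

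To ask which other nuclear receptors changed when ERRα was knocked down, siERRα was compared with siNC. Of the 30 tested members 5 were higher, against 11.4% of all tested genes, and 7 were lower, against 12.6% (adjusted p under 0.05, edgeR). When the change also had to reach 0.5 on the log2 scale in either direction, 3 members were left, against 7.26% of all genes. These were NR6A1 (higher), PPARG and VDR (both lower). Over all tested genes, 23.9% were called in either direction. In each of the 12 called members the siERRα and siNC libraries did not overlap, as was so for 97.4% of all called genes and 38.6% of all tested genes. The median log2 fold change was −0.03 over the 30 members and 0.01 over all genes, and the median absolute value 0.25 against 0.175. Members with few counts and a wide SE enter these medians, and the difference between them was not tested. Without siNC replicate 3, 4 members were called lower instead of 7.

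Imatinib was compared with siNC to ask which receptors changed when KIT was inhibited. It left 9 of the 30 members higher, against 21.4% of all genes, and 6 lower, against 20.3%. These 15 are 50.0% of the members, against 41.7% of all genes. The fold threshold kept 10, against 17.6% of all genes. The median log2 fold change was −0.05 over the members and 0.00 over all genes, and the median absolute value 0.37 against 0.252, a difference that was not tested either. These 2 comparisons share the siNC libraries, so the siERRα libraries were also set directly against the imatinib libraries, which tests the difference between the effects. There 9 members were higher in siERRα (25.6% of all genes), 11 were lower (26.6%), and 11 passed the fold threshold too (26.3%). The 20 called are 66.7% of the members, against 52.2% of all genes, and the groups of NR2F6 alone among them overlapped, where 95.5% of all called genes did not overlap. Of the 30, 24 were called in at least 1 of the 3 comparisons and 3 (THRB, NR2C2 and NR5A2) in all 3, against 61.6% and 10.1% of all tested genes.

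**Figure D2:**
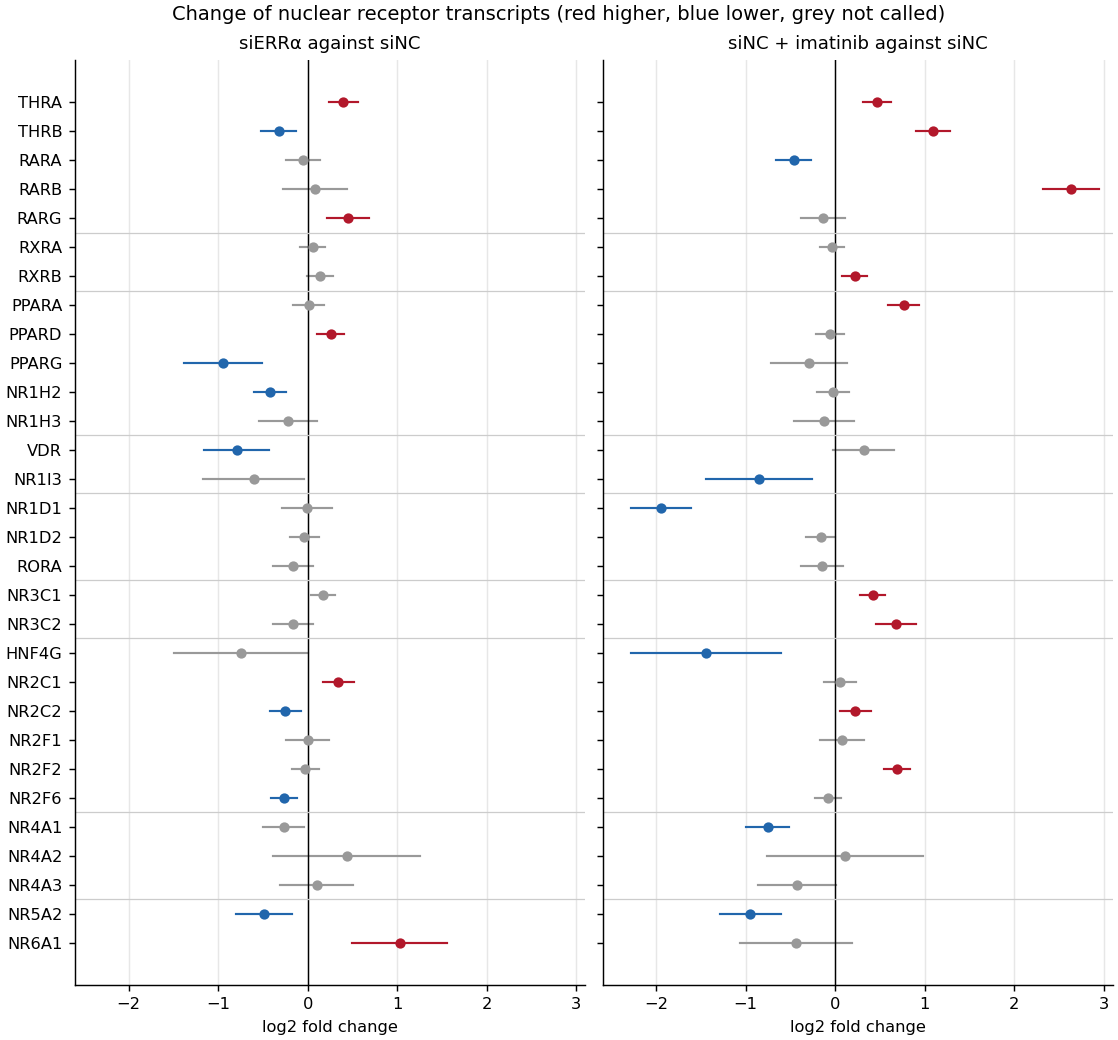
Log2 fold changes of the 30 tested members after ERRα knockdown (left) and with imatinib (right), each against siNC, with 95% confidence intervals and with lines between functional groups. Red points are higher and blue points lower at an adjusted p under 0.05. RARB (2.64) and NR1D1 (−1.95) lie farthest from 0 on the right and close to 0 on the left.

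The receptors of thyroid hormone and retinoic acid work as dimers with an RXR, repress their targets without ligand and activate them with it. All 5 were expressed. RARB, which retinoic acid itself induces through the repeat printed above, had 1.25, 1.65 and 1.51 CPM in siNC, 1.49, 1.60 and 1.57 in siERRα, and 8.78, 10.6 and 7.98 with imatinib. Each imatinib library stood above each library of the other groups, which overlapped. The rise was 6.21-fold (95% interval 5.02 to 7.69, log2 2.64 ± 0.15 SE, adjusted p = 1.07e-10 in edgeR), and after knockdown the log2 fold change was 0.08 ± 0.17 (adjusted p = 0.792). In direct comparison, siERRα was lower than imatinib (log2 fold change −2.56 ± 0.15, adjusted p = 5.48e-11).

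THRB, the thyroid hormone receptor β, moved in both comparisons, in opposite directions. It had 20.2, 15.7 and 20.7 CPM in siNC, 15.2, 15.4 and 14.7 in siERRα and 40.1, 42.9 and 37.7 with imatinib. No 2 groups overlapped, although the second siNC library (15.7) was close to the siERRα libraries. Imatinib raised THRB by 1.09 ± 0.09 on the log2 scale (2.13-fold, adjusted p = 1.70e-08, edgeR). After knockdown its log2 fold change was −0.32 ± 0.09 (adjusted p = 0.0157), a call that was lost without siNC replicate 1, siNC replicate 3 or siERRα replicate 3 (adjusted p 0.0504 to 0.0958). The difference between siERRα and imatinib was −1.41 ± 0.09 (adjusted p = 2.94e-10).

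THRA, the receptor α, was higher in both. Its CPM was 44.1, 51.6 and 50.3 in siNC, 67.1, 57.4 and 68.1 in siERRα and 68.0, 63.5 and 70.5 with imatinib. Both treated groups lay above siNC and overlapped with each other. The log2 fold change was 0.40 ± 0.08 after knockdown (adjusted p = 0.000726, edgeR) and 0.47 ± 0.08 with imatinib (adjusted p = 6.86e-05), and the difference between them was −0.07 (95% interval −0.23 to 0.09). THRA (chr17:40058290-40093867, plus strand) shares 473 exon bases with NR1D1 (chr17:40092793-40100589, minus strand), 6.45% of its exon length. The strand setting of the counting is not given in the sources used here, so how reads in shared bases were counted is not known.

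The α and γ retinoic acid receptors each changed in 1 comparison. RARG had 5.30, 4.89 and 4.82 CPM in siNC, 6.65, 6.42 and 7.57 in siERRα and 4.88, 4.07 and 4.67 with imatinib. All siERRα libraries were highest (log2 fold change 0.46 ± 0.11, adjusted p = 0.00522, edgeR), and the imatinib libraries overlapped with siNC (−0.14 ± 0.12, adjusted p = 0.364). RARA had 22.4, 24.1 and 22.6 CPM in siNC, 25.1, 20.8 and 20.7 in siERRα and 17.9, 14.6 and 17.5 with imatinib. Here the imatinib libraries were lowest (−0.47 ± 0.09, adjusted p = 0.000447), and siERRα overlapped with siNC (−0.05 ± 0.09, adjusted p = 0.734). Both receptors were higher in siERRα than with imatinib, RARG by 0.60 ± 0.11 (adjusted p = 0.000225) and RARA by 0.41 ± 0.09 (adjusted p = 0.000898). RARA shares 11.7% of its exon length with the antisense transcript RARA-AS1, which had enough reads to be tested.

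**Figure D3:**
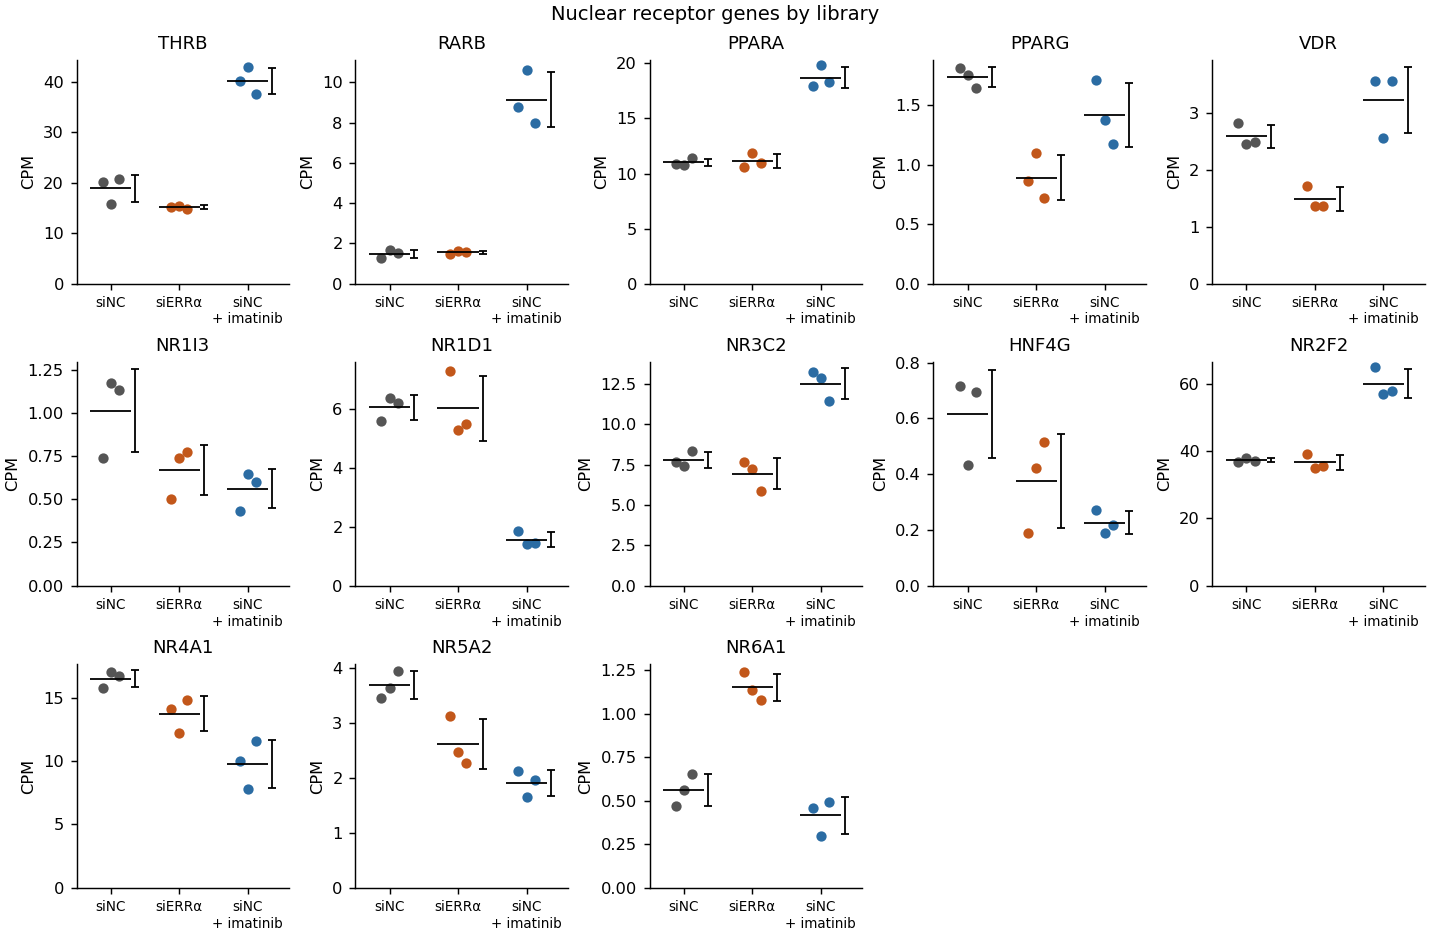
CPM of 13 members in each library (axes start at 0), with a bar at the group mean and the SD over 3 libraries beside it. RARB, THRB, PPARA, NR3C2 and NR2F2 were highest with imatinib and NR1D1 and NR4A1 lowest, while PPARG and VDR were lowest and NR6A1 highest in siERRα.

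The RXRs are the obligate partners of the receptors above. RXRA did not pass the test in any comparison, with 60.4 to 66.2 CPM in siNC, 60.7 to 68.5 in siERRα and 58.2 to 64.2 with imatinib, and the intervals of its log2 fold change were −0.08 to 0.19 after knockdown and −0.17 to 0.10 with imatinib. RXRB had 57.8, 65.5 and 59.4 CPM in siNC, 71.0, 62.5 and 67.6 in siERRα and 68.4, 69.5 and 74.4 with imatinib. The imatinib libraries were above siNC by a small margin, 0.22 ± 0.07 on the log2 scale (adjusted p = 0.0142, edgeR), and this call was lost without siNC replicate 1, siNC replicate 3 or imatinib replicate 3 (adjusted p 0.0702 to 0.0852). After knockdown the value was 0.14 ± 0.07 (adjusted p = 0.151). RXRB shares 9.26% of its exon length with SLC39A7 on the other strand, which had enough reads to be tested.

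Among the lipid sensors, the PPARs bind fatty acids and the 3 are described in turn. PPARA, which drives fatty acid oxidation in liver, had 10.9, 10.8 and 11.4 CPM in siNC, 10.6, 11.8 and 10.9 in siERRα and 17.97, 19.8 and 18.3 with imatinib. The imatinib group stood apart (log2 fold change 0.76 ± 0.08, 1.70-fold, adjusted p = 3.95e-07 in edgeR), and the other groups overlapped (0.01 ± 0.08, adjusted p = 0.936). The direct difference between siERRα and imatinib was −0.75 ± 0.08 (adjusted p = 2.51e-07). PPARG, the regulator of fat cell formation, had 1.81, 1.76 and 1.65 CPM in siNC, 0.859, 1.09 and 0.721 in siERRα and 1.71, 1.37 and 1.18 with imatinib. It was lowest in every siERRα library, and the imatinib libraries overlapped with siNC. The knockdown value was −0.95 ± 0.21 (0.518-fold, adjusted p = 0.00229) and the imatinib value −0.29 ± 0.20 (adjusted p = 0.266). Their difference, −0.66 ± 0.22 (adjusted p = 0.0157), was not called without siERRα replicate 3 or imatinib replicate 1 (adjusted p 0.0582 and 0.0827).

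PPARD, the widely expressed PPAR, was the most abundant of the 3. It had 53.3, 61.6 and 58.0 CPM in siNC, 70.2, 64.9 and 71.3 in siERRα and 59.5, 50.3 and 56.2 with imatinib. Its siERRα libraries were highest, with a log2 fold change of 0.26 ± 0.07 (adjusted p = 0.0136, edgeR), while imatinib gave −0.06 ± 0.07 (adjusted p = 0.564). The knockdown call was lost without siNC replicate 1, siNC replicate 3 or siERRα replicate 3 (adjusted p 0.0584 to 0.0888).

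The liver X receptors NR1H2 (LXRβ) and NR1H3 (LXRα) sense oxysterols and induce cholesterol efflux. NR1H2 had 33.7, 41.4 and 38.4 CPM in siNC, 31.0, 24.9 and 29.0 in siERRα and 38.6, 36.03 and 36.8 with imatinib. Only the siERRα libraries were lower (−0.42 ± 0.09, adjusted p = 0.00131, edgeR). With imatinib its value was −0.03 ± 0.09 (adjusted p = 0.835), and the difference between siERRα and imatinib was −0.39 ± 0.09 (adjusted p = 0.000792). NR1H2 shares 22.1% of its exon length with NAPSA, which did not pass the filter on low counts. NR1H3 ran from 1.79 to 2.62 CPM over the 9 libraries and passed the test in no comparison.

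The vitamin D receptor VDR had 2.82, 2.44 and 2.48 CPM in siNC, 1.72, 1.37 and 1.36 in siERRα and 3.55, 2.56 and 3.55 with imatinib. The siERRα libraries were lowest, and siNC and imatinib overlapped. Knockdown gave a log2 fold change of −0.79 ± 0.17 (0.577-fold, adjusted p = 0.00220, edgeR) and imatinib 0.32 ± 0.16 (adjusted p = 0.126), and siERRα was lower than imatinib (−1.11 ± 0.17, adjusted p = 2.29e-05). Without imatinib replicate 2 the imatinib value of VDR was 0.46 and passed the test (adjusted p = 0.0365). The xenobiotic receptor NR1I3 (CAR), a liver receptor, was near the floor here, with 33, 46 and 57 counts in siNC, 24, 35 and 30 in siERRα and 16, 24 and 22 with imatinib. Its CPM was 0.738, 1.17 and 1.13 in siNC, 0.503, 0.736 and 0.772 in siERRα and 0.434, 0.647 and 0.601 with imatinib. It fell with imatinib (−0.85 ± 0.28, adjusted p = 0.0216), a call lost without siNC replicate 2, siNC replicate 3 or imatinib replicate 1 (adjusted p 0.0726 to 0.0901). NR1I3 shares 20.4% of its exon length with TOMM40L, which passed the filter on low counts.

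The clock receptors repress (NR1D1 and NR1D2, the REV-ERBs) or activate (RORA) the core clock genes through the same DNA element. NR1D1 had 5.57, 6.36 and 6.19 CPM in siNC, 7.27, 5.26 and 5.48 in siERRα and 1.84, 1.40 and 1.45 with imatinib. Every imatinib library was below every other library, and siNC and siERRα overlapped. Imatinib lowered it to 0.259-fold (log2 −1.95 ± 0.16, adjusted p = 1.44e-08 in edgeR), while after knockdown the value was −0.01 ± 0.13 (adjusted p = 0.983). In siERRα it was 3.84-fold higher than with imatinib (adjusted p = 6.88e-09). The exon bases shared with THRA are 17.98% of NR1D1, and THRA was higher with imatinib.

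NR1D2, which was more abundant, had 61.0, 54.8 and 58.2 CPM in siNC and 49.8, 57.9 and 47.7 with imatinib, which overlapped, with a log2 fold change of −0.16 (95% interval −0.33 to 0.00, adjusted p = 0.104 in edgeR). Without imatinib replicate 2 it was −0.25 and passed the test (adjusted p = 0.0129). RORA ran from 6.59 to 9.26 CPM over all libraries, and neither comparison with siNC passed the test.

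The steroid receptors were represented by the glucocorticoid receptor NR3C1 and the mineralocorticoid receptor NR3C2. NR3C1 had 76.9, 72.0 and 76.8 CPM in siNC, 81.3, 88.9 and 84.0 in siERRα and 101, 108 and 92.1 with imatinib. The 3 groups were in this order with no overlap. The imatinib value of 0.42 ± 0.07 passed the test (adjusted p = 4.05e-05, edgeR), the knockdown value of 0.17 ± 0.07 did not (adjusted p = 0.0654), and the difference of −0.25 ± 0.06 between them passed (adjusted p = 0.00341). NR3C2 had 7.65, 7.41 and 8.34 CPM in siNC, 7.69, 7.26 and 5.89 in siERRα and 13.2, 12.9 and 11.4 with imatinib. It was 1.60-fold higher with imatinib (log2 0.68 ± 0.10, adjusted p = 3.47e-05), with no overlap, and −0.16 ± 0.11 after knockdown (adjusted p = 0.307). siERRα was lower than imatinib (−0.84 ± 0.11, adjusted p = 1.78e-06).

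Of the NR2 orphan receptors, NR2F2 (COUP-TFII), a regulator of mesenchymal and venous identity, rose most. It had 36.7, 37.9 and 37.2 CPM in siNC, 39.3, 35.0 and 35.6 in siERRα and 64.9, 57.1 and 57.9 with imatinib. The imatinib libraries stood apart from both other groups (log2 fold change 0.69 ± 0.07, 1.61-fold, adjusted p = 2.13e-07 in edgeR), and knockdown gave −0.02 ± 0.07 (adjusted p = 0.851). Its paralog NR2F1 ran from 6.74 to 9.54 CPM and was called in no comparison, with an imatinib interval of −0.17 to 0.32. NR2F6, the most abundant member, had 119, 133 and 118 CPM in siNC, 109, 93.7 and 105 in siERRα and 116, 108 and 124 with imatinib. It was lower after knockdown (−0.27 ± 0.07, adjusted p = 0.00850), and its imatinib libraries overlapped with siNC (−0.08 ± 0.07, adjusted p = 0.360). The imatinib libraries also overlapped with siERRα, and that difference of −0.18 ± 0.07 (adjusted p = 0.0357) was lost without siERRα replicate 2, imatinib replicate 1 or imatinib replicate 3 (adjusted p 0.0696 to 0.174) and with library numbers as a block (0.0528).

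The testicular receptors NR2C1 (TR2) and NR2C2 (TR4), which bind DNA as a pair, moved in opposite directions after knockdown. NR2C1 had 11.4, 10.3 and 10.6 CPM in siNC, 13.5, 14.4 and 13.0 in siERRα and 11.0, 11.6 and 10.8 with imatinib, so that siERRα alone stood out (0.34 ± 0.08, adjusted p = 0.00469 in edgeR). The imatinib value was 0.05 ± 0.08 (adjusted p = 0.666). NR2C2 had 15.1, 16.2 and 15.8 CPM in siNC, 13.4, 12.1 and 13.97 in siERRα and 19.6, 16.9 and 18.4 with imatinib. Its groups did not overlap, with −0.25 ± 0.08 after knockdown (adjusted p = 0.0328) and 0.23 ± 0.08 with imatinib (adjusted p = 0.0336). Both of these calls were lost without a filter on low counts (adjusted p = 0.0543 and 0.0731). The knockdown call was also lost without any 1 siNC library or without siERRα replicate 1 or 2 (0.0525 to 0.102), and the imatinib call without siNC replicate 1 or 3 or imatinib replicate 1 or 3 (0.0857 to 0.142). The difference between siERRα and imatinib was −0.48 ± 0.08 (adjusted p = 7.92e-05). MRPS25 on the other strand, which passed the filter on low counts, shares 60.5% of the NR2C2 exon length.

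HNF4G, an endoderm receptor, was barely present, with 32, 17 and 35 counts in siNC, 9, 20 and 20 in siERRα and 10, 7 and 8 with imatinib. Its CPM was 0.716, 0.433 and 0.695 in siNC, 0.189, 0.421 and 0.515 in siERRα and 0.271, 0.189 and 0.219 with imatinib. The siERRα libraries overlapped with both other groups. Imatinib gave −1.44 ± 0.40 on the log2 scale (adjusted p = 0.00712, edgeR) and knockdown −0.74 ± 0.36 (adjusted p = 0.147). Only 6 of its 9 libraries reached the cutoff of the filter, 0.257 CPM, so it was tested because of the groups in which it was higher. It was not tested where at least 10 counts were required in every library.

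The NR4A receptors are immediate early genes that need no ligand. NR4A1 (Nur77) had 15.7, 17.03 and 16.7 CPM in siNC, 14.1, 12.2 and 14.8 in siERRα and 9.98, 7.81 and 11.6 with imatinib. The groups did not overlap, with imatinib lowest. Imatinib gave −0.75 ± 0.11 (0.593-fold, adjusted p = 2.73e-05 in edgeR). The knockdown value of −0.27 ± 0.11 missed the threshold (adjusted p = 0.0849) but passed it with no filter on low counts (0.0393), with only the 6 libraries compared (0.0326) and without imatinib replicate 2 (0.0350). Setting the treatments against each other, NR4A1 was 0.49 ± 0.11 higher in siERRα (adjusted p = 0.00144). NR4A1AS shares 10.3% of the NR4A1 exon length and did not pass the filter.

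NR4A3 (NOR1) had 1.75, 1.55 and 2.00 CPM in siNC, 1.89, 1.81 and 2.03 in siERRα and 1.76, 1.24 and 0.956 with imatinib. It passed neither comparison with siNC. The siERRα libraries lay above the imatinib libraries (0.53 ± 0.21, adjusted p = 0.0385, edgeR), a call lost with DESeq2 (0.0519), with only the 6 libraries compared (0.0570) and on leaving out siNC replicate 3, siERRα replicate 1 or 3, or imatinib replicate 2 or 3 (0.0516 to 0.202). Its imatinib value against siNC was −0.43 ± 0.21 (adjusted p = 0.110), and −0.69 without imatinib replicate 1 (adjusted p = 0.0183). NR4A2 (NURR1) stayed between 0.190 and 0.875 CPM, with 7 to 34 counts per library, and was called in no comparison.

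NR5A2 (LRH-1), a regulator of bile acid and steroid synthesis, was lower in both comparisons. It had 3.45, 3.64 and 3.95 CPM in siNC, 3.12, 2.46 and 2.26 in siERRα and 2.11, 1.64 and 1.97 with imatinib, in this order with no overlap. The log2 fold change was −0.49 ± 0.15 after knockdown (adjusted p = 0.0241, edgeR), not called without siNC replicate 3, siERRα replicate 2 or siERRα replicate 3 (adjusted p 0.0529 to 0.107). With imatinib it was −0.95 ± 0.16 (0.519-fold, adjusted p = 0.000101). The difference of 0.46 ± 0.17 (adjusted p = 0.0256) was lost without siERRα replicate 1, imatinib replicate 2 or imatinib replicate 3 (0.0509 to 0.159).

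NR6A1, a repressor of pluripotency genes in embryonic cells, had the lowest mean level per kb of the tested members in siNC, where it overlapped with NR4A2, and the largest rise after knockdown among them. It had 21, 22 and 33 counts in siNC, 59, 54 and 42 in siERRα and 17, 11 and 18 with imatinib. In CPM these were 0.470, 0.560 and 0.655, then 1.24, 1.14 and 1.08, then 0.461, 0.296 and 0.492. Each siERRα library was above all others, and siNC and imatinib overlapped. The knockdown value was 1.03 ± 0.25 on the log2 scale (2.04-fold, 95% interval 1.42 to 2.94, adjusted p = 0.00520 in edgeR), and imatinib gave −0.44 ± 0.30 (adjusted p = 0.259). siERRα exceeded imatinib by 1.46 ± 0.27 (adjusted p = 0.000161).

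The 7-base sequence ATGTTCT was searched in 3′ UTRs because it stood out among genes lower after knockdown once values of these data had been seen. Among canonical transcripts it occurs in the 3′ UTR of 8 of the 30 tested members and of 18.8% of the 12888 tested genes with a 3′ UTR. Of these 8 members, NR2C1 and NR6A1 were higher after knockdown, NR2C2 and NR5A2 were lower, and NR1D2, RORA, NR2F2 and NR4A3 were not called. THRB, PPARG, VDR, NR1H2 and NR2F6, the other members that fell, do not hold these letters there. The part of this sequence in any change was not tested.

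Receptors act through coactivators and corepressors, and lists of such partners and of known target genes were examined beside them. The shares over all genes given above, 11.4% higher and 12.6% lower after knockdown and 21.4% higher and 20.3% lower with imatinib, are the background of each count that follows. Of 16 tested coactivators 3 rose and 1 fell after knockdown, and 3 rose and 3 fell with imatinib, near the shares of all genes. The list's median log2 fold change was 0.01 after knockdown and 0.02 with imatinib. MED1, the Mediator subunit that docks onto liganded receptors, had 59.3, 56.9 and 60.3 CPM in siNC, 37.4, 39.8 and 37.2 in siERRα and 60.6, 61.8 and 57.9 with imatinib. Only the siERRα libraries were low, with a log2 fold change of −0.63 ± 0.06 (adjusted p = 4.87e-07, edgeR). KAT2B, an acetyltransferase, fell with imatinib (−0.62 ± 0.07, adjusted p = 5.57e-07). Of 10 corepressor genes 2 rose and 2 fell after knockdown, and 3 rose and 2 fell with imatinib. Over the list, the median log2 fold change was 0.13 after knockdown and 0.04 with imatinib. HDAC3, the deacetylase of the NCOR complexes, had 74.6, 79.9 and 72.5 CPM in siNC, 29.8, 29.2 and 31.5 in siERRα and 89.0, 92.8 and 93.1 with imatinib. It thus fell after knockdown (−1.33 ± 0.06, adjusted p = 3.69e-11) and was higher with imatinib (0.28 ± 0.06, adjusted p = 0.00102). Its 3′ UTR holds 1 copy of the 7-base sequence above, and that of MED1 holds 0.

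Steroid receptors are held ready for ligand by HSP90 and its helpers. After knockdown 2 of 10 such chaperone genes rose and none fell, and with imatinib 1 rose and 6 fell. The list's median log2 fold change was 0.07 after knockdown and −0.24 with imatinib. DNAJB1 fell with imatinib (−0.54 ± 0.05, adjusted p = 8.88e-08, edgeR), as did STIP1 (−0.46 ± 0.05, adjusted p = 9.03e-07) and FKBP4 (−0.40 ± 0.06, adjusted p = 9.16e-06). Targets of the glucocorticoid receptor moved both ways. Of 10, 1 rose and 4 fell after knockdown and 2 rose and 3 fell with imatinib. Its median log2 fold change was −0.11 after knockdown and −0.09 with imatinib. GLUL, glutamine synthetase, had 167, 165 and 164 CPM in siNC, 73.7, 71.3 and 75.6 in siERRα and 192, 211 and 207 with imatinib, so that it was low in siERRα (−1.17 ± 0.06, adjusted p = 3.87e-11) and high with imatinib (0.30 ± 0.05, adjusted p = 0.000213). DUSP1, a phosphatase that also follows MAP kinase signaling, fell with imatinib (−0.96 ± 0.08, adjusted p = 1.27e-08).

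Of 11 tested genes that transport or convert retinoids and thyroid hormone, 3 rose and 3 fell after knockdown and 6 rose and 3 fell with imatinib. Over the list, the median log2 fold change was 0.01 after knockdown and 0.41 with imatinib. STRA6, the cell surface receptor that takes up retinol, had 18.3, 20.5 and 18.6 CPM in siNC, 15.99, 14.2 and 15.2 in siERRα and 37.46, 36.7 and 36.2 with imatinib. The groups did not overlap (−0.34 ± 0.08, adjusted p = 0.00270 after knockdown, and 0.95 ± 0.07, adjusted p = 6.96e-09 with imatinib, edgeR). RDH10, which makes retinal, rose in both, by 0.29 ± 0.06 after knockdown (adjusted p = 0.000963) and by 0.69 ± 0.06 with imatinib (adjusted p = 2.13e-08). CYP26B1, which breaks down retinoic acid and is induced by it, had 0.828, 0.814 and 0.853 CPM in siNC, 1.15, 1.01 and 0.926 in siERRα and 3.17, 2.69 and 3.33 with imatinib. Its rise with imatinib was 1.88 ± 0.18 (adjusted p = 1.16e-07). Other genes of this list were lower with imatinib. ALDH1A2 had 6.13, 6.06 and 6.59 CPM in siNC, 8.45, 9.07 and 8.24 in siERRα and 4.85, 3.99 and 4.40 with imatinib, without overlap. After knockdown it was called higher (0.45 ± 0.10, adjusted p = 0.00256, edgeR). DIO3 was named after its values were seen. It had 2.01, 2.82 and 2.24 CPM in siNC, 2.58, 1.58 and 1.85 in siERRα and 0.569, 0.593 and 0.738 with imatinib.

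SLC16A10, which carries thyroid hormone and aromatic amino acids across the cell membrane, had 3.78, 4.20 and 4.17 CPM in siNC, 2.08, 2.67 and 2.39 in siERRα and 7.43, 7.17 and 7.46 with imatinib, lowest in siERRα (−0.77 ± 0.13, adjusted p = 0.000185, edgeR) and highest with imatinib (0.86 ± 0.12, adjusted p = 7.67e-06). Its 3′ UTR holds 2 copies of the 7-base sequence. Of 6 tested targets of retinoic acid or thyroid hormone, 1 rose after knockdown, and 3 rose and 2 fell with imatinib. The list's median log2 fold change was 0.13 after knockdown and 0.53 with imatinib. RARB and CYP26B1 were 2 of those 3, and both were also counted above. The third was TGM2, a transglutaminase, with 241, 259 and 254 CPM in siNC, 292, 276 and 282 in siERRα and 469, 432 and 446 with imatinib (0.84 ± 0.05, adjusted p = 6.15e-10). DHRS3, which returns retinal to retinol and is likewise induced by retinoic acid, fell with imatinib (−0.29 ± 0.07, adjusted p = 0.00221).

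Of the 7 tested LXR targets 5 were higher and 0 lower after knockdown, and 1 was higher and 4 were lower with imatinib. ABCA1, ABCG1 and SREBF1 passed both tests, in opposite directions. Its median log2 fold change was 0.32 after knockdown and −0.17 with imatinib. ABCA1, which exports cholesterol, had 22.01, 20.5 and 20.5 CPM in siNC, 28.4, 30.7 and 27.6 in siERRα and 10.8, 9.43 and 9.05 with imatinib. ABCG1, its partner in cholesterol export, had 30.0, 32.3 and 28.7 CPM in siNC, 37.9, 38.5 and 37.6 in siERRα and 15.4, 15.6 and 14.7 with imatinib. In both, siERRα was highest and imatinib lowest without overlap. For ABCA1 the log2 fold changes were 0.46 ± 0.08 (adjusted p = 0.000220, edgeR) and −1.10 ± 0.08 (adjusted p = 6.14e-09), and for ABCG1 0.32 ± 0.07 (adjusted p = 0.00139) and −0.99 ± 0.07 (adjusted p = 2.48e-09). Side by side, LXRβ (NR1H2) was lower after knockdown, where these targets were higher, and passed no test with imatinib, where they were lower. LXRα (NR1H3) passed neither test.

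Of 11 tested PPAR targets, 2 rose and 2 fell after knockdown and 3 rose and 4 fell with imatinib. Over the list, the median log2 fold change was −0.03 after knockdown and −0.14 with imatinib. FABP4, a fatty acid carrier of fat cells and endothelium, fell with imatinib from 616 to 329 CPM (−0.90 ± 0.07, adjusted p = 3.21e-09 in edgeR) and was at 0.03 ± 0.07 after knockdown (adjusted p = 0.803), where PPARG itself was lower. ACSL3, an acyl-CoA synthetase, fell after knockdown (−0.67 ± 0.06, adjusted p = 2.89e-07) and with imatinib (−0.45 ± 0.06, adjusted p = 1.21e-05). The 3 that rose with imatinib were PDK4 (2.07 ± 0.29, adjusted p = 1.41e-05), ANGPTL4 (0.60 ± 0.16, adjusted p = 0.00496) and ACADVL (0.19 ± 0.05, adjusted p = 0.00764). PDK4, a kinase that turns off pyruvate oxidation, also rose after knockdown (1.49 ± 0.30, adjusted p = 0.00127), from 0.403, 0.305 and 0.198 CPM in siNC to 0.713, 0.968 and 0.849 in siERRα, with 1.08, 1.51 and 1.202 with imatinib. PDK4 and ACADVL were named after their values were seen, since PDK4 lies under the mean of 1 CPM asked of named genes. CPT1A, the entry step of mitochondrial fatty acid oxidation, rose after knockdown by 0.40 ± 0.09 (adjusted p = 0.00222) and gave 0.01 ± 0.09 with imatinib (adjusted p = 0.960). Of 3 tested targets of vitamin D or estrogen receptors, 1 rose and 1 fell after knockdown and 1 fell with imatinib. The list's median log2 fold change was 0.22 after knockdown and −0.14 with imatinib. The estrogen-induced chemokine CXCL12 was the gene that fell after knockdown (−0.58 ± 0.08, adjusted p = 2.02e-05), and ESR1 had no reads in these cells.

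Of 16 clock genes, 2 rose and 1 fell after knockdown, while 5 rose and 6 fell with imatinib, the treatment under which NR1D1 fell. The share called after knockdown was 18.8%, near the 23.9% of all genes, and with imatinib it was 68.8% against 41.7%. Its median log2 fold change was −0.03 after knockdown and −0.14 with imatinib. BHLHE40 (DEC1), a clock repressor, had 23.5, 25.6 and 25.9 CPM in siNC, 25.4, 23.5 and 22.3 in siERRα and 9.22, 8.65 and 10.1 with imatinib. Its imatinib libraries alone were low (−1.42 ± 0.08, adjusted p = 2.35e-10, edgeR). CIART, another repressor, fell with imatinib (−1.09 ± 0.15, adjusted p = 9.20e-06), as did PER2 (−0.63 ± 0.09, adjusted p = 2.35e-05). NPAS2, an activator that REV-ERBs repress, fell as well (−1.07 ± 0.08, adjusted p = 1.01e-08). The 5 that rose, named after their values were seen, were HLF (0.88 ± 0.20, adjusted p = 0.00176), PER3 (0.73 ± 0.28, adjusted p = 0.0417), ARNTL2 (0.50 ± 0.11, adjusted p = 0.000928), ARNTL (0.33 ± 0.13, adjusted p = 0.0455) and TEF (0.20 ± 0.08, adjusted p = 0.0465). ARNTL (BMAL1) is a clock activator that REV-ERBs also repress. After knockdown the cryptochrome CRY2 rose from 57.8 to 88.3 CPM (0.61 ± 0.06, adjusted p = 6.45e-07), and ARNTL2, an activator, fell from 14.3 to 7.63 CPM (−0.90 ± 0.11, adjusted p = 9.13e-06).

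**Figure D4:**
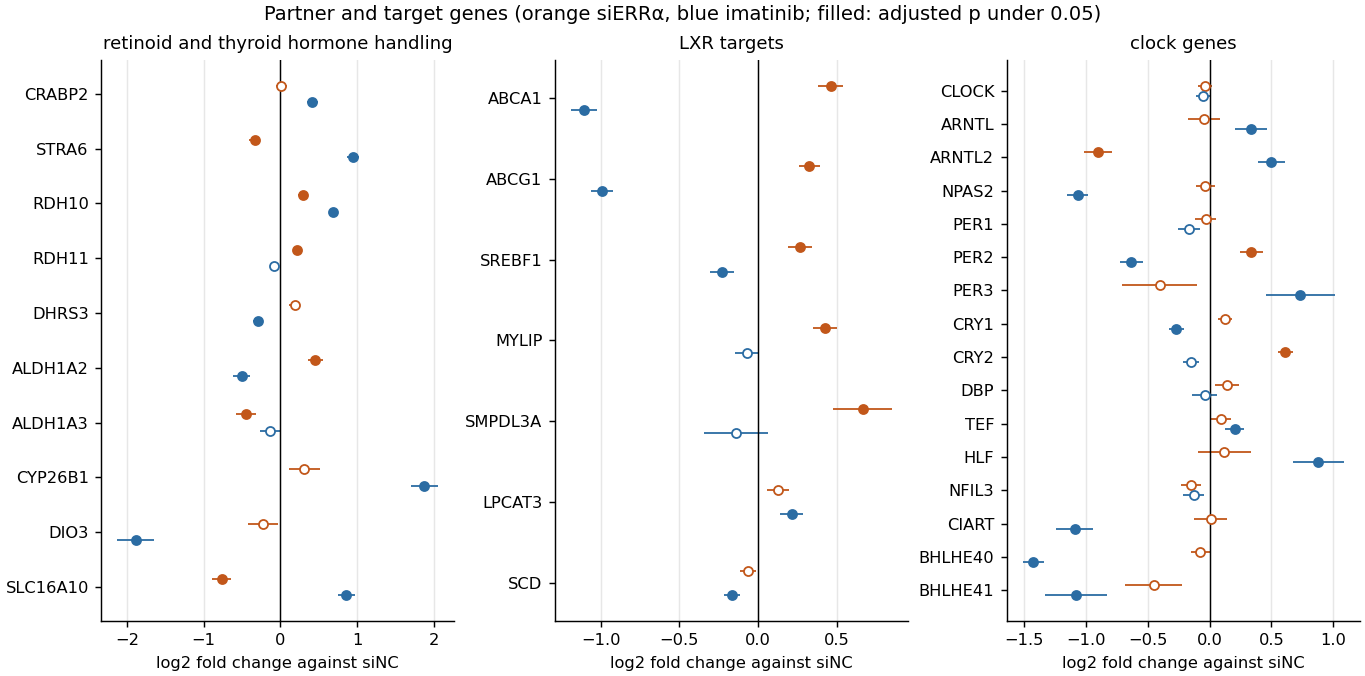
Log2 fold change against siNC (± SE) of genes of retinoid and thyroid hormone handling, LXR targets and clock genes (tested genes, with 1 of the first list not plotted) after knockdown (orange) and with imatinib (blue), with filled points for an adjusted p under 0.05. ABCA1 and ABCG1 lie to the right of 0 after knockdown and to the left with imatinib, and BHLHE40 is the clock gene farthest from 0 with imatinib (−1.42).

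Of all tested genes, 23.9% were called after knockdown, 41.7% with imatinib and 52.2% between the treatments. The shares of all genes with the patterns below were not counted, so these member counts have no direct background. Counted over both comparisons with siNC, 4 members were higher after knockdown and not called with imatinib (NR2C1, NR6A1, PPARD and RARG), and 4 were lower after knockdown and not called with imatinib (NR1H2, NR2F6, PPARG and VDR). In the direct comparison of siERRα with imatinib all 8 passed the test (edgeR), each on the side of its knockdown change. However, NR2F6 and PPARG lost this call without some single libraries, as given above. The direct comparison reuses the siERRα and imatinib libraries by which the members were sorted here, so its outcome is not independent of the sorting. Of the 6 that were higher with imatinib and not called after knockdown, NR2F2, NR3C1, NR3C2, PPARA and RARB also differed between the treatments, and RXRB did not (−0.08 ± 0.07, adjusted p = 0.346). Of the 5 that were lower with imatinib and not called after knockdown, NR1D1, NR4A1 and RARA differed between the treatments, while HNF4G (0.70 ± 0.43, adjusted p = 0.189) and NR1I3 (0.25 ± 0.30, adjusted p = 0.510) did not. Together the 43 members made up 692 to 730 CPM in siNC, 684 to 734 in siERRα and 778 to 804 with imatinib, where no library overlapped with the other groups.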

How the data were processed

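The data are bulk poly(A) RNA sequencing of GIST-T1 cells. Alignment by the authors used STAR 2.7.3a and GRCh38, and featureCounts 2.0.1 assigned reads to genes. Raw counts without normalization were deposited by the authors. For the annotation release and strand setting, the sources used here give no statement. Grouping followed the labels. Library totals of 37527236 to 49363002 counts set the precision.

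Genes were filtered with filterByExpr (minimum count 10, minimum total 15) and normalized by TMM, and the 3 comparisons were tested with edgeR 4.0.16 (R 4.3.3; quasi-likelihood F-test, robust) in 1 fit of 9 libraries, with Benjamini-Hochberg adjustment over 16976 genes. The SE of a log2 fold change (given after ±) was derived from its F. The script was tested on simulated data. Alternatives were DESeq2 1.42.0 and its size factors, limma-voom (limma 3.58.1), other filters, only the 6 libraries compared, library numbers as a block, and each library left out. Within groups, libraries differed by more than sampling noise (chi-square per degree of freedom 3.83 to 16.8), so none was counted as a duplicate.

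Exon lengths and 3′ UTRs came from GENCODE release 44 (60473 of 61209 symbols matched) and start windows from RefSeq (GRCh38.p14), which held 38 members. Named were all tested members, values in every library for those called in a comparison, and up to 4 called genes with the smallest p in each partner or target list and comparison, with a mean of at least 1 CPM, and of these a selection is described. The values of 1 list gene are not reported here, although list counts and medians include it. The members and lists were chosen with earlier results of these data known.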

Additional observations from a re-analysis of the deposited data

How the results depend on the processing

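Of the values of single receptors, none reversed a called direction under any alternative. Over all alternatives, 15 values lost the call and 4 gained it after knockdown, 11 and 3 with imatinib, and 16 and 2 between the treatments, and those losses and gains stand beside each receptor, except RXRB, which gained a knockdown call without siERRα replicate 2 (adjusted p = 0.0425), and HNF4G and NR1D2, which gained a call between the treatments without siERRα replicate 1 (0.0499) and imatinib replicate 2 (0.0277). Leaving out each library in turn, 8 to 13 members were called after knockdown (4 to 6 higher and 4 to 8 lower), 12 to 17 with imatinib (7 to 10 higher and 5 to 7 lower), and 17 to 20 between the treatments, while over all genes 2910 to 4401, 5794 to 7780 and 8203 to 8934 were called. Without siNC replicate 3, 1163 of all genes were higher after knockdown instead of 1931 (range over libraries left out, 1163 to 2018). DESeq2 size factors moved the median log2 fold change of all genes by at most 0.005. The titles of all samples carry the number 1 and the columns 1 to 3, and same-numbered libraries had correlations of −0.0996 to 0.147, and no pairing by number was assumed. With the library number as a replicate block, 12, 15 and 19 members were called in the 3 comparisons instead of 12, 15 and 20, and NR2F6 was the one lost (adjusted p = 0.0528). Receptors with a group mean under 1 CPM (HNF4G and NR4A2 in every group, NR6A1 in siNC and with imatinib, NR1I3 in siERRα and with imatinib, and PPARG in siERRα) rest on few counts, and depth limits what can be said of them.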
